A study of Tupaia belangeri with 6 samples.

Results

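KCNA1, KCNA2, KCNC1, KCNC2, KCND2, KCND3 and KCNQ3, 7 genes for the pore-forming (alpha) subunits of voltage-gated potassium channels, were looked up by symbol in the prefrontal cortex (PFC) transcriptomes of tree shrews (Tupaia belangeri). Of these 7 genes, 5 had a row in every library, among 95863 loci per library and 22608 loci with a symbol. For KCNA1 and KCNA2, 0 rows with these names were found, so these 2 genes were not analysed here. Copies whose symbols end in li and a number were not counted as members. Each of the 5 genes had 1 row per library.

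The 6 libraries came from adult animals, 3 females (numbered 1, 3 and 4) and 3 males (numbered 1, 4 and 5), each sequenced alone after enrichment of polyadenylated RNA. No animal carries a treatment or a genetic change in the labels. The sample table of the study lists every male at a greater age than every female, without a unit of age, so sex and age cannot be told apart. Levels are given as TPM, a measure of transcript abundance scaled to transcript length and to the library. Since TPM keeps no sequencing depth, counting intervals are not given. The share of TPM that fell in loci without strand was 2.30% to 3.33% in the females and 2.67% in male 4, but 5.16% in male 1 and 7.88% in male 5. Markers of neurons (4 of 5 with a row) summed to between 5666 and 7720 TPM per library, with SNAP25, a protein of synaptic vesicle release named after its values were seen, at 3088 TPM or more. Striatal projection neuron markers (2 of 6 with a row) summed to 50.7 to 58.6 TPM in females 1 and 3 and male 1, and to 2.72 to 5.19 TPM in the other 3 libraries. RGS9 alone made this split, while DRD1 was at 1.20 to 7.06 TPM and higher in male 4 than in male 1.

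Voltage-gated potassium channels open on depolarization and let potassium leave the cell, which repolarizes the membrane and sets how long a spike lasts and how soon the next can follow. Alpha subunits assemble as tetramers, mostly within a subfamily. Channels of the Kv3 subfamily (KCNC genes) open and close quickly and are best known from fast-spiking interneurons, those of the Kv4 subfamily (KCND genes) carry the transient A-type current of dendrites, and KCNQ3 of the Kv7 subfamily contributes to the slow M-current that muscarinic receptors suppress. KCNA1 and KCNA2 belong to the Kv1 subfamily, which is concentrated along axons.

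The Kv3 genes had the highest levels among the 5 genes, followed by KCNQ3, with the Kv4 genes lowest. KCNC2 was at 90.4 ± 17.1 TPM (SD, n = 6) and KCNC1 at 78.3 ± 14.0 TPM (SD, n = 6). KCNQ3 was at 34.1 ± 4.83 TPM (SD, n = 6), KCND3 at 19.4 ± 5.92 TPM (SD, n = 6) and KCND2 at 9.19 ± 7.04 TPM (SD, n = 6). The coefficient of variation over the 6 libraries was 14.2% for KCNQ3, 17.9% for KCNC1, 18.9% for KCNC2, 30.4% for KCND3 and 76.5% for KCND2.

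**Figure D1:**
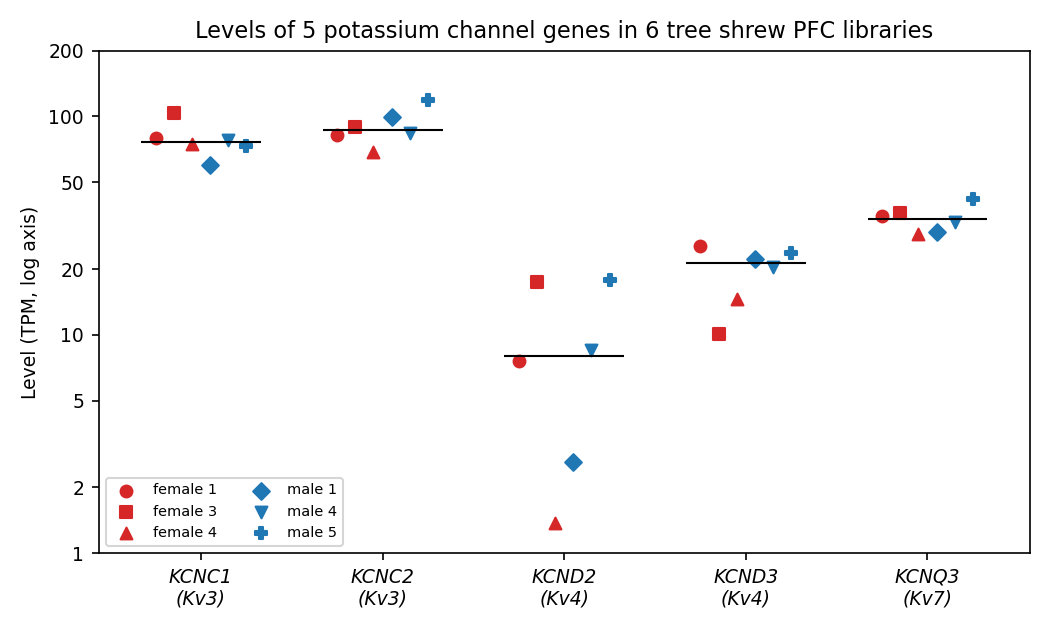
Level of each gene in TPM (log axis) in the 3 female (red) and 3 male (blue) libraries, with 1 symbol per library and a horizontal line at the median of the 6. KCNC1, KCNC2 and KCNQ3 lie in narrow bands, whereas KCND2 runs from 1.38 to 17.8 TPM.

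The order was tested within libraries, as the difference in log2(TPM + 1) between each pair of genes, with an exact two-sided permutation (sign-flip) test over the 6 libraries. In 8 of the 10 pairs, 1 gene was above the other in every library, and each of these had p = 0.03125, the smallest value that 6 libraries allow (exact test, adjusted p = 0.0391 over the 10 pairs by the Benjamini-Hochberg method). The exceptions were the pairs within a subfamily. KCNC2 was above KCNC1 in 4 libraries and below it in 2 (exact permutation test, adjusted p = 0.375). KCND3 was above KCND2 in 5 libraries and below it in 1 (exact permutation test, adjusted p = 0.104). The neighbours KCNQ3 and KCND3 differed by 0.83 on the log2 scale, with KCNQ3 higher in 6 of 6 libraries.

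The place of KCNQ3 in this order and the order of the Kv4 pair depended on the measure. The deposited tables also give the mean read coverage of each locus, where KCNQ3 was lowest of the 5 genes by median, at 2.02 to 2.77, against 5.67 to 15.1 for KCND3. With coverage in place of TPM, an alternative chosen after seeing the data, KCND3 was above KCNQ3 in 6 of 6 libraries and KCND2 was above KCNQ3 in 5 of 6. By coverage, KCND3 was above KCND2 in 3 libraries and below it in 3 (exact permutation test, adjusted p = 0.6875). For KCNQ3, the FPKM per unit of coverage was 17.3 to 19.5 times the commonest value of the library, while the same ratio was 1.84 to 2.47 for KCNC1, KCNC2 and KCND3 and KCND2 had the commonest value in every library. The position of the Kv3 genes above the 3 others was the same by both measures.

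KCNC1 is at position 6744424 to 6795690 of chromosome 17 on the plus strand of the genome TS_3.0, a span of 51267 bp. Its product is a delayed rectifier of fast-spiking neurons. It was at 79.97, 103.2 and 75.1 TPM in females 1, 3 and 4 and at 60.2, 77.9 and 73.4 TPM in males 1, 4 and 5. Female 3 was the highest and male 1 the lowest, and the sexes overlapped, with male 4 above female 4. The opposite-strand gene SERGEF, at 29.3 to 36.0 TPM, overlaps the KCNC1 span by 5450 bp. No strand-specific library protocol is named for these libraries, so reads of the shared stretch may have been assigned to either gene.

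KCNC2, the other Kv3 gene of the set, lies at 70436550 to 70673499 on the minus strand of chromosome 6. It was at 82.2, 89.1 and 68.95 TPM in females 1, 3 and 4 and at 99.7, 83.8 and 118.8 TPM in males 1, 4 and 5. The highest female was above the lowest male, so the sexes overlapped here as well. Inside the span of KCNC2 lie 4 loci without strand, which summed to 23.4 TPM in male 5 and to 0 to 2.93 TPM in the other libraries. Male 5 had both the highest KCNC2 level and the highest signal from these loci, and the part of one in the other was not tested.

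Together the Kv3 pair was at 162.2, 192.3 and 144.1 TPM in females 1, 3 and 4 and at 160.0, 161.6 and 192.2 TPM in males 1, 4 and 5. KCNC1 was 0.973, 1.16 and 1.09 times KCNC2 in females 1, 3 and 4, and 0.604, 0.930 and 0.618 times KCNC2 in males 1, 4 and 5. Every female ratio of TPM was above every male one, but female 1 and male 4 differed little. This pattern was noticed in these data and is given as a description with no test. It did not hold by coverage. There, KCNC1 was above KCNC2 in male 4 (50.5 and 46.3) but below it in female 1 (53.3 and 55.7).

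**Figure D2:**
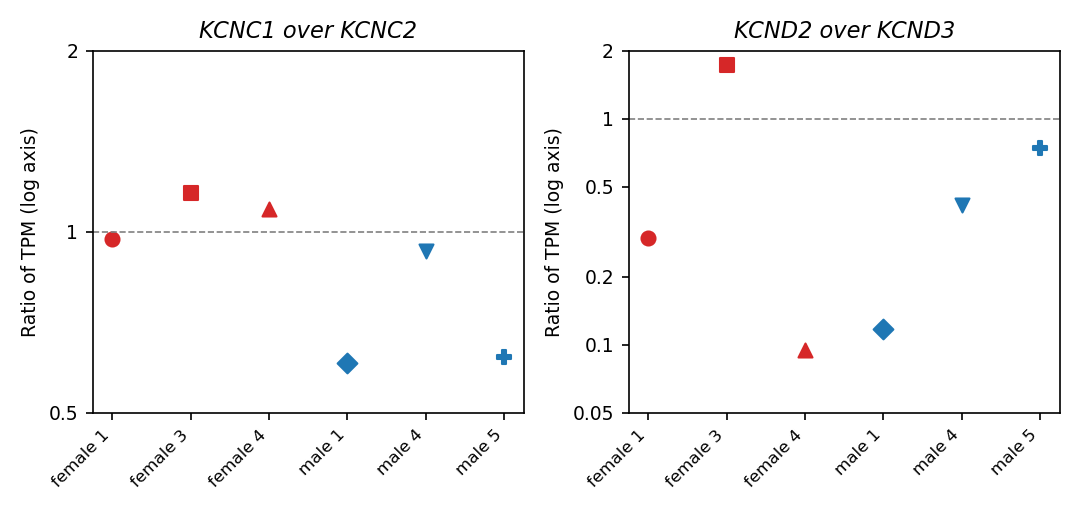
Ratio of TPM of the members of a subfamily in each library (log axis), KCNC1 over KCNC2 on the left and KCND2 over KCND3 on the right, with red symbols for females, blue symbols for males and a dashed line at equal levels. The ratio spans 0.604 to 1.16 for the Kv3 genes and 0.0946 to 1.72 for the Kv4 genes.

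KCND2 encodes the main A-type channel of pyramidal cell dendrites in rodents. The gene spans 570599 bp, from 64586641 to 65157239 on the minus strand of chromosome 5, the longest span of the 5. It was at 7.57, 17.4 and 1.38 TPM in females 1, 3 and 4 and at 2.62, 8.48 and 17.8 TPM in males 1, 4 and 5. The libraries thus fell into a low pair (female 4 and male 1), a middle pair (female 1 and male 4) and a high pair (female 3 and male 5), with 1 animal of each sex in each. The highest level was 12.8 times the lowest, against 1.45 to 2.53 times for the other genes of the set. Its coverage ran from 2.12 in female 4 to 22.05 in male 5, so the same libraries were low before scaling to the library. Over the 6 libraries the SD of log2(TPM + 1) was 1.22, larger than in 98.3% of the 2649 named autosomal genes with a mean TPM within 2-fold of KCND2, whose median SD was 0.36. For KCND3 this SD was 0.48, larger than in 81.3% of genes of like level, and for KCNQ3, KCNC1 and KCNC2 it was larger than in 16.7%, 37.3% and 44.3%.

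The spread of KCND2 had values of other measures beside it. The 6 loci without strand inside its span summed to 28.1 TPM in male 1, where KCND2 was low, and to 1.76 and 1.85 TPM in female 3 and male 5, where it was high, but to 5.99 TPM in female 4, the lowest library. Markers of GABAergic neurons (4 of 5 with a row, none at 0) also summed lowest in female 4 and male 1, at 337.8 and 354.8 TPM, with 452.4 to 777.1 TPM in the other libraries, although their sum in female 1 (563.4 TPM) was above that in male 5 (509.2 TPM). Among them, GAD2, an enzyme of GABA synthesis named after its values were seen, was at 8.61 and 16.1 TPM in female 4 and male 1, at 43.4 and 59.3 TPM in female 1 and male 4, and at 82.2 and 87.4 TPM in female 3 and male 5. GAD1, the other enzyme of GABA synthesis, had the same order of pairs over a smaller fold range, at 127.7 and 107.0 TPM, at 177.7 and 141.5 TPM, and at 296.6 and 213.1 TPM. The other 2 markers of this list did not. SLC32A1, the vesicular GABA transporter, was lower in male 5 (175.0 TPM), where KCND2 was high, than in male 1 (199.0 TPM), where it was low. LHX6, a transcription factor of interneurons also named after its values were seen, was at 31.1 to 37.4 TPM in all 6 libraries. Astrocyte markers (4 of 5 with a row, none at 0) summed to 679.3 and 816.0 TPM in female 4 and male 1, to 954.8 and 1014 TPM in female 1 and male 4, and to 1102 and 1107 TPM in female 3 and male 5, the same order of pairs as KCND2. Of the astrocyte markers, SLC1A3, a glutamate transporter, kept this order by itself, and GFAP, AQP4 and ALDH1L1 did not. In bulk tissue, fewer cells of a type and less RNA per cell cannot be told apart, and the part of these values in the KCND2 spread was not tested.

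KCND3, the other Kv4 gene, lies at 91252093 to 91492411 on the plus strand of chromosome 7. It was at 25.5, 10.1 and 14.6 TPM in females 1, 3 and 4 and at 22.2, 20.5 and 23.8 TPM in males 1, 4 and 5. The males lay close together and inside the female range, and female 3, a library with high KCND2, had the lowest KCND3. KCND2 was therefore 1.72 times KCND3 in female 3, but 0.0946 and 0.118 times KCND3 in female 4 and male 1. The opposite-strand gene DDX20 (10.3 to 31.6 TPM) and an unnamed locus (23.9 to 40.9 TPM) overlap the ends of the KCND3 span by 8020 and 6310 bp.

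KCNQ3 lies at 10170464 to 10511897 on the plus strand of chromosome 13. It was at 34.9, 36.2 and 29.0 TPM in females 1, 3 and 4 and at 29.5, 32.9 and 42.05 TPM in males 1, 4 and 5. It varied least of the 5 genes, with a highest level of 1.45 times the lowest, and the female range lay within the male range except at its lower end. An unnamed opposite-strand locus of 5.65 to 19.6 TPM overlaps its start by 2289 bp.

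The genes whose profile over the 6 libraries was most like that of each member were found by the root mean square (RMS) difference of log2(TPM + 1), centred on each gene's mean, among 9583 other named genes with a mean of at least 1 TPM. Nearest to KCND2 were FAM160B1 (RMS difference 0.128) and ACOT1 (0.198). FAM160B1 was at 1.54 and 2.85 TPM in female 4 and male 1, at 6.91 and 8.30 TPM in female 1 and male 4, and at 14.1 and 16.9 TPM in female 3 and male 5. ACOT1 had the same 3 pairs of libraries, from 0.887 to 9.28 TPM. For the other members the 2 nearest genes were ATP8A2 (0.040) and PAGR1A (0.046) for KCNC1, P2RX3 (0.025) and FAM185A (0.027) for KCNC2, PORCN (0.134) and MTIF3 (0.151) for KCND3, and CAMK1D (0.045) and AGO4 (0.053) for KCNQ3. With 6 libraries and this many candidates, some genes lie near any profile, and these distances are a description.

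**Figure D3:**
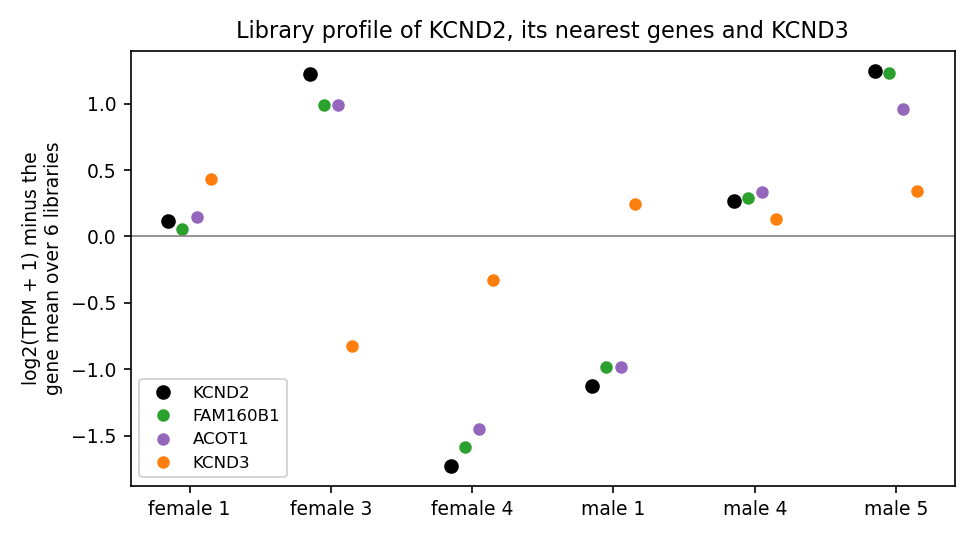
Level of KCND2, of FAM160B1 and ACOT1 (the 2 genes with the nearest profile) and of KCND3 in each library, as log2(TPM + 1) minus the gene's mean over the 6 libraries. KCND2 and its nearest genes are low in female 4 and male 1 and high in female 3 and male 5, and KCND3 is lowest in female 3.

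The study compared females with males over the whole transcriptome, and the same comparison was made with limma on log2(TPM + 1), for genes that reached 0.1 TPM in a minimum of 3 libraries. None of the 5 genes passed an adjusted p-value of 0.1 (0 of 5), where 0.0143% of the 27996 autosomal genes tested did. At the same threshold the study, with a model of read counts (DESeq2), called many more autosomal genes. The 0 of 5 is therefore weak evidence that the sexes are alike. Without male 1 and male 5, the libraries with the largest share of TPM in loci without strand, the count was 0 of 5, but male 4 is then the only male, assumed to vary like the females, so this count adds no support. By limma, 0 of the 5 had an unadjusted p-value under 0.05, against 5.04% of autosomal genes, and for 0 of the 5 the sexes did not overlap, against 9.81% (4.84% with every female above every male).

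Females minus males, KCNC1 differed by 0.28 on the log2 scale (limma standard error 0.19, 95% interval −0.15 to 0.71, Benjamini-Hochberg adjusted p = 0.925), with a female mean of 86.1 ± 15.03 TPM (SD, n = 3) and a male mean of 70.5 ± 9.18 TPM (SD, n = 3). KCNC2 differed by −0.32 (standard error 0.19, 95% interval −0.76 to 0.11), with a female mean of 80.1 ± 10.2 TPM (SD, n = 3) and a male mean of 100.8 ± 17.6 TPM (SD, n = 3). The interval of neither Kv3 gene reached a log2 difference of 1 in either direction. For KCNQ3 the difference was −0.05 (95% interval −0.51 to 0.41), with a female mean of 33.4 ± 3.84 TPM (SD, n = 3) and a male mean of 34.8 ± 6.498 TPM (SD, n = 3), and its sign turned without female 4 (0.046) or male 5 (0.092).

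The Kv4 genes had wider intervals. KCND3 differed by −0.48 (standard error 0.32, 95% interval −1.21 to 0.25), with a female mean of 16.7 ± 7.91 TPM (SD, n = 3) and a male mean of 22.2 ± 1.65 TPM (SD, n = 3), and its difference was −0.19 without female 3 and −0.815 without female 1. KCND2 differed by −0.26 (standard error 0.81, 95% interval −2.11 to 1.59), with a female mean of 8.77 ± 8.06 TPM (SD, n = 3) and a male mean of 9.62 ± 7.63 TPM (SD, n = 3), so that a difference of 2-fold in either direction lay inside its interval. The sign for KCND2 turned without female 4 (0.54) or without male 5 (0.30), and by limma its adjusted p-value was at least 0.839 in every alternative.

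**Figure D4:**
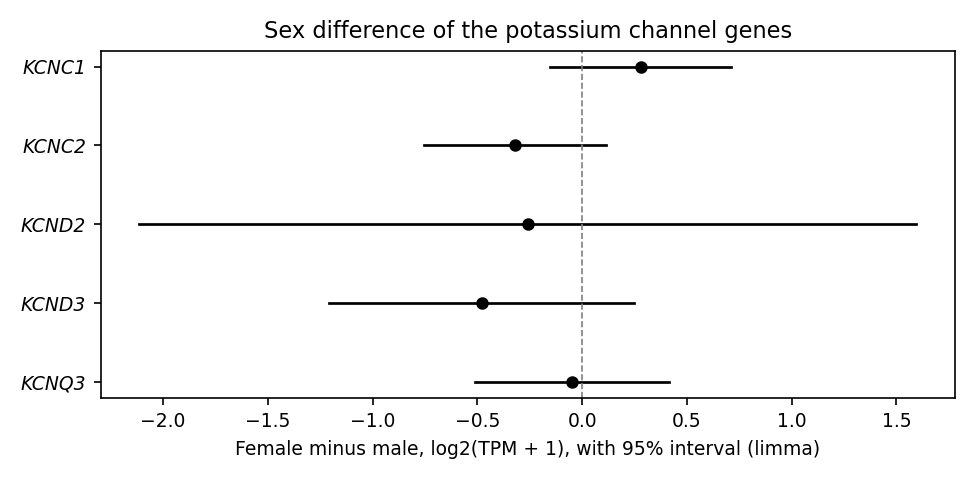
Female minus male difference in log2(TPM + 1) for each of the 5 genes, with points for the limma estimate, bars for its 95% interval and a dashed line at no difference. All 5 intervals include 0, and that of KCND2 is the widest, from −2.11 to 1.59.

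Of 33 other voltage-gated potassium channel alpha subunit genes, 29 had a row and 25 passed the filter on low values. Among those without a row of their name were KCND1, KCNH3 and KCNH5. KCNA10 was listed at 0 in all 6 libraries. In the Kv3 subfamily, KCNC4 was at 24.8 to 43.5 TPM, below KCNC1 and KCNC2 in every library. In the Kv7 subfamily, KCNQ5 (20.1 to 66.6 TPM) had the range of KCNQ3 inside its own, while KCNQ1 (0.331 to 1.35 TPM), known best from the heart, was lower in every library. The Kv1 genes with a row were led by KCNA6 at 36.9 to 80.6 TPM, followed by KCNA3 at 11.3 to 20.6 TPM and KCNA5 at 5.08 to 11.2 TPM. KCNB2, a delayed rectifier of the Kv2 subfamily, was at 3.10 to 5.57 TPM. Of the ether-a-go-go family, KCNH2, KCNH4 and KCNH1 had the highest means, at 41.1, 40.5 and 21.0 TPM.

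Between the sexes, 0 of the 25 other alpha subunit genes tested passed the adjusted threshold in limma, and 2 of 25 had an unadjusted p-value under 0.05, both higher in females, where 2.42% of autosomal genes did so in that direction. The first was KCNF1, a silent subunit that modifies Kv2 channels and the most abundant gene of this list, at 199.1, 205.5 and 182.7 TPM in females 1, 3 and 4 and at 115.8, 146.7 and 96.4 TPM in males 1, 4 and 5. Every female was above every male, by 0.72 on the log2 scale (limma standard error 0.19, Benjamini-Hochberg adjusted p = 0.925), which does not pass, and its difference was 0.41 to 0.88 over the alternatives. The second, named after its values were seen, was KCNS1, another silent subunit, which ranged over 2.58 to 8.27 TPM in the female and 0.582 to 1.28 TPM in the male libraries (log2 difference 1.62, adjusted p = 0.925 by limma, with differences of 0.91 to 2.28 over the alternatives). The remaining silent subunits with the highest means were KCNV1 and KCNG2, at 39.1 and 28.8 TPM, with log2 differences of 0.09 and 0.28. The median difference over the 25 genes was 0.04, beside −0.03 over all autosomal genes tested, and 13 of the 25 were higher in females. The sexes did not overlap for 2 of the 25, against 9.81% of autosomal genes.

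Of 23 genes for auxiliary subunits and for proteins that cluster these channels, 19 had a row and 17 passed the filter. KCNIP3, DPP6, KCNE1 and DLG4 had no row with their name, and KCNAB1 was listed at 0 in all libraries. The KCNAB1 row spans only 306 bp, beside 109627 bp for KCNAB2, so its 0 is not read as absence of the gene's RNA. The partners of Kv4 channels with a row were above the Kv4 genes of the set in TPM. The calcium-binding KChIP genes KCNIP4 and KCNIP2 were at 132.5 to 271.2 TPM and 129.3 to 182.5 TPM, KCNIP1 was at 49.5 to 108.4 TPM, and DPP10, a membrane protein that speeds Kv4 channels, was at 37.1 to 68.8 TPM. DPP10 and the KChIP genes were thus above both KCND2 and KCND3 in every library, since the highest level of either was 25.5 TPM. None of these 4 shared the low values of KCND2 in both female 4 and male 1, where DPP10 was at 42.5 and 43.1 TPM.

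Genes that serve Kv1 channels were measured although KCNA1 and KCNA2 were not. KCNAB2, a cytoplasmic beta subunit, was at 224.8 to 357.9 TPM, and KCNAB3 at 38.3 to 60.2 TPM. Among the clustering genes, the secreted LGI3 and LGI1 and the scaffold DLG2 had the highest means, at 143.7, 134.9 and 107.7 TPM. In limma, 0 of the 17 genes passed the adjusted threshold and 2 of 17 had an unadjusted p-value under 0.05, both higher in females, beside 0.0143%, 5.04% and, for that direction, 2.42% of autosomal genes. These were KCNAB3 (log2 difference 0.42, and 0.28 to 0.49 over the alternatives) and, named after its values were seen, CNTN2 (0.69, and 0.25 to 0.86 over the alternatives), an adhesion molecule of the juxtaparanode, the zone beside the node of Ranvier where Kv1 channels sit under myelin. CNTN2 ranged over 47.7 to 67.5 TPM in the female and 25.7 to 46.7 TPM in the male libraries. Beside it, oligodendrocyte markers (3 of 6 with a row, none at 0) summed to 347.6 to 481.6 TPM in the female libraries, above the 80.7 to 235.6 TPM of the male ones, and their part in the CNTN2 difference was not tested. Of these markers, MAG alone separated the sexes, at 246.6 to 345.5 TPM in the female and 63.4 to 145.6 TPM in the male libraries, while MOG and MBP overlapped. The MBP row spans only 893 bp, at 7.07 to 13.7 TPM, and may not stand for the whole gene. The median difference over the 17 genes was 0.02, and the sexes did not overlap for 3 of them, among them CNTNAP2, where every male was above every female, against 9.81% of autosomal genes.

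The auxiliary genes KCNE4, KCNE3 and KCNE2 were near the lower end, with means of 2.72, 0.978 and 0.928 TPM. AMIGO1, an adhesion protein that accompanies Kv2 channels, was at 20.4 to 38.4 TPM.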

How the data were processed

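Reads were aligned by the authors with HISAT2 2.2.1 (version from the submitters' processing notes, as for StringTie) to assembly TS_3.0. They assembled transcripts per animal with StringTie 2.2.1, merged them with the reference annotation and measured each animal against the merged set. The deposited TPM is scaled to transcript length and library, the deposited FPKM differs from it by 1 factor per library (3.68 to 4.25 TPM per FPKM), and the deposited coverage is the mean signal over a locus, unscaled. Since read counts are not among these columns, the DESeq2 model used in the study was not run.

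Rows of 1 gene ID and chromosome were summed. Genes that reached 0.1 TPM in a minimum of 3 libraries were fitted with limma 3.58.1 (R 4.3.3, mean-variance trend, no covariate) on log2(TPM + 1), on which changes of genes with low TPM appear too small. Benjamini-Hochberg adjustment was made separately for autosomes and X, at a threshold of 0.1. A segment each of chromosomes X and 26, and unplaced contigs, were left out. Before use, the limma step was tested on simulated data. Pairs of genes were compared by exact sign-flip permutation with Python 3.11.15, numpy 2.4.6 and pandas 2.3.3, and figures were drawn with matplotlib 3.10.9.

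Named genes are the members, the 3 genes with the highest mean in each class of the 2 gene lists, genes past the threshold, genes at 0 or without a row, and the 2 nearest profiles of each member, and others were named after their values were seen. Some genes of the lists are counted but not reported here by name. The members, lists and tests were chosen with earlier results of these data known. Alternatives covered the pseudocount, filter, scaling, unit, covariate, block, variance model and each library left out.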

Additional observations from a re-analysis of the deposited data

How the results depend on the processing

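No member passed the limma threshold under any of the 17 alternatives, and neither did any of the other alpha subunit, auxiliary or clustering genes (0 in each). The count of autosomal genes called was 4, and it was 2 with FPKM, 0 with the strandless share as a covariate, 0 without the mean-variance trend, 7 without males 1 and 5 together (added after seeing the data, with male 4 as the lone male assumed to vary like the females), and 2 to 5 with each library left out, with the 2 falling without female 1 and without male 5. With animal number as a replicate block it was 2. The numbers 1 and 4 occur in both sexes, but deviations of same-numbered animals correlated at 0.001 and 0.038 over 28740 genes, so the numbers are not taken as pairs, and the block changed no member's call. The sign for KCNC1, KCNC2 and KCND3 was kept in all 17 alternatives, but the size was not. KCNC1 (0.28) was 0.14 without female 3, 0.17 without male 1, 0.18 with the replicate block and 0.13 without males 1 and 5. KCNC2 (−0.32) was −0.20 without male 5, −0.12 with the strandless covariate and −0.07 without males 1 and 5. KCND3 (−0.48) was −0.19 without female 3, −0.815 without female 1 and −0.14 with the replicate block. KCND2 ranged from −0.93 to 0.54 with each library left out. KCNQ3 (−0.05) turned to 0.086 with the strandless covariate, 0.031 with the replicate block and 0.015 without males 1 and 5, and ranged from −0.16 to 0.092 with each library left out. The pairs in 1 order in every library were 8 of 10, and 8 to 9 with each library left out. The depth behind each TPM is not held in these values.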

Other observations

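On chromosome 7, 1 unnamed locus lies between KCNA3 and KCNA10, on the plus strand from 92561491 to 92588247. It was at 85.2, 108.1 and 65.2 TPM in females 1, 3 and 4 and at 77.5, 87.8 and 95.8 TPM in males 1, 4 and 5, above KCNA3 in every library. On chromosome 6, between KCNA5 and KCNA6, 1 unnamed locus with a strand had a mean of at least 1 TPM. It lies on the minus strand from 36026879 to 36035135, and was at 50.4, 53.3 and 29.5 TPM in females 1, 3 and 4 and at 43.8, 39.5 and 35.2 TPM in males 1, 4 and 5. In human, KCNA2 lies between KCNA3 and KCNA10, and KCNA1 between KCNA5 and KCNA6. The tables give neither locus a symbol, and no value was assigned to KCNA1 or KCNA2. By limma, the sex differences of the loci were −0.04 (standard error 0.21, adjusted p = 0.991) and 0.13 (standard error 0.25, adjusted p = 0.971).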
